A study of Homo sapiens with 95 samples.

Results

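The Fat and Dachsous cadherins, FAT1, FAT2, FAT3, FAT4 and DCHS1, were selected by gene symbol and were all found among the 27978 genes listed for each sample, so that the family described here holds 5 of 27978 genes. The series measured RNA by sparse full length (SFL) sequencing, in which barcoded libraries are pooled and sequenced at low depth, in 95 samples of AALE cells. AALE is an epithelial line that was derived from human bronchus and immortalized. A line labelled FAT1 and a line labelled CDKN2A carried CRISPR knockouts of these genes, and the GFP line, which received the Cas9-EGFP plasmid PX458 with no guide RNA, was their control. The lines labelled NRF2, FGFR1, NRG1 and PIK3CA overexpressed these genes (NFE2L2 in the case of NRF2), and the line with an empty vector carrying the reporter HcRed (HCRED in the plots) was their control. Cells of each line were plated, reached confluency for 24 h and then received 1 of 4 treatments. These were cigarette smoke condensate (CSC) at 24 μg/ml, the polycyclic hydrocarbon benzo(a)pyrene (BaP) at 173 μM, NNK, a nitrosamine found in tobacco, at 490 μM, and DMSO alone. Each of 31 combinations of line and treatment had 3 samples and CSC-treated FGFR1 had 2. The study calls the replicates biological, but the sample labels do not say whether they came from separate cultures, so p-values measure the spread between these samples, which may be technical in part. The labels give neither the time of exposure nor whether a line was a pool or a clone.

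Fat and Dachsous proteins are very large cadherins with long extracellular chains of cadherin repeats. FAT4 and DCHS1 bind each other across cell borders, the kinase FJX1 acts on such binding, and the pair is known for orienting cells within a tissue plane. FAT1 is known for its role at epithelial cell contacts and in actin organisation, and as a gene often lost in squamous cancers, FAT2 for its presence in keratinocytes and other squamous epithelia, and FAT3 mainly for its role in the nervous system. In flies a protein named Fat also restrains growth through the Hippo kinase pathway, which holds back YAP, a cofactor of TEAD transcription factors. Whether FAT1 acts in this way in AALE cells was not tested here.

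The members lie at 5 places on 3 chromosomes of GRCh37, the build of the hg19 alignment. FAT1 is at chr4:187508948-187647876 on the minus strand, FAT2 at chr5:150883653-150970892 on the minus strand, FAT3 at chr11:91957984-92629639 on the plus strand, FAT4 at chr4:126236073-126414087 on the plus strand, and DCHS1 at chr11:6642561-6677040 on the minus strand. Their longest annotated transcripts are between 10.7 kb for DCHS1 and 19.5 kb for FAT3, longer than 96.2% (DCHS1) to 99.7% (FAT3) of 13487 genes with a mean count above 1 and a known length. No other gene listed in the files overlaps their exons, although the annotation has unlisted antisense or overlapping RNAs at FAT2 and DCHS1, and whether strand was used in counting is not stated.

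The sequences shown are the 2 annotated start regions of FAT1, because FAT1 was both the knockout target and the member that differed most with BaP, a ligand of the aryl hydrocarbon receptor (AhR). Each window holds 250 bases before and 50 bases after a start in RefSeq on GRCh38.p14, is printed 5′ to 3′ on the minus strand, and has the letters GCGTG, the core bound by AhR, in capitals. The windows are chr4:186726647-186726946 and, for the alternative start, chr4:186723807-186724106.
FAT1 first start: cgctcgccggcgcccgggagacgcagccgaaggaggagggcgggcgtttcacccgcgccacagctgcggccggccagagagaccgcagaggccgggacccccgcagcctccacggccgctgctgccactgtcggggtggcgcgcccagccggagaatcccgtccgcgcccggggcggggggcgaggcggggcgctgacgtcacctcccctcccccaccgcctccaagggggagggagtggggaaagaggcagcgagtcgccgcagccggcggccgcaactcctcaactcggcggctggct
FAT1 alternative start: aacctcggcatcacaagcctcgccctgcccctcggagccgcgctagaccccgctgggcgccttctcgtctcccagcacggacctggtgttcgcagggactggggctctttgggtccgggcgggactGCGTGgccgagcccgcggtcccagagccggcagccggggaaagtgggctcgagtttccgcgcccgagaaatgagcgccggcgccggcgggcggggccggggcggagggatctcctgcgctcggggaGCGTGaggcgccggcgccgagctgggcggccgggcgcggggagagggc
GCGTG was absent from the first window on both strands and occurred 2 times in the alternative window, both on the strand printed. At least 1 GCGTG was found in 36.5% of 35116 RefSeq promoter windows of this length, and GGAATG (the core bound by TEAD factors) in 14.0%. TGANNNNGC, a loose form of the core of the antioxidant response element bound by NRF2, was found in 41.8%. Neither TGANNNNGC nor GGAATG occurred in either FAT1 window, and none of the 3 motifs occurred in the FAT2 window at chr5:151591282-151591581. Windows of FAT3, FAT4 and DCHS1 were not analysed here. These are matches of letters and not evidence of binding.

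The samples held 287446 to 2116383 reads counted in genes (median 934235), and 3 reads corresponded to between 1.42 and 10.4 CPM, a gene's reads scaled to the same fixed total of reads in every sample. All 9 markers of bronchial epithelial cells had a median of at least 10 CPM, with KRT5 at a median of 3118 CPM, while of 14 markers of fibroblasts, endothelium and immune cells only COL1A1 and CD68 did and CD3E had no read. The perturbed gene lay outside the range of its control samples in all 6 perturbed lines.

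Levels of the members differed by orders of magnitude. Values are TMM-normalized CPM, and levels of different genes were compared per kb of the longest transcript. FAT1 and FAT2 were counted in all 95 samples, at 39.3 ± 18.4 and 40.6 ± 8.53 CPM per kb (SD, n = 95), above 88.9% and 89.5% of the genes compared. FAT4 was also counted in all 95 samples but at 3.86 ± 1.78 CPM per kb (SD, n = 95), above 30.5% of genes. DCHS1 had 99 reads in all, with 1 or more in 61 samples and at most 5 in a sample, for a pooled 1.11 CPM (exact Poisson 95% interval 0.900 to 1.35). FAT3 had 18 reads in 17 samples and at most 2 in a sample, for a pooled 0.201 CPM (interval 0.119 to 0.318), and the GFP and CDKN2A lines had none in 12 samples each. The intervals cover counting error only, since reads carried no molecular identifiers. FAT3 did not pass the filter of a mean count above 1 in any comparison and DCHS1 passed in 9 of 14 comparisons between groups. DCHS1 was called in 0 of these 9 by limma, with 0 at an unadjusted p under 0.05, and in 0 by edgeR and 0 by DESeq2. Differences in FAT3 and DCHS1 between conditions were therefore not detectable at this depth. In bulk RNA, fewer cells with a transcript and less of it per cell cannot be told apart.

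**Figure D1:**
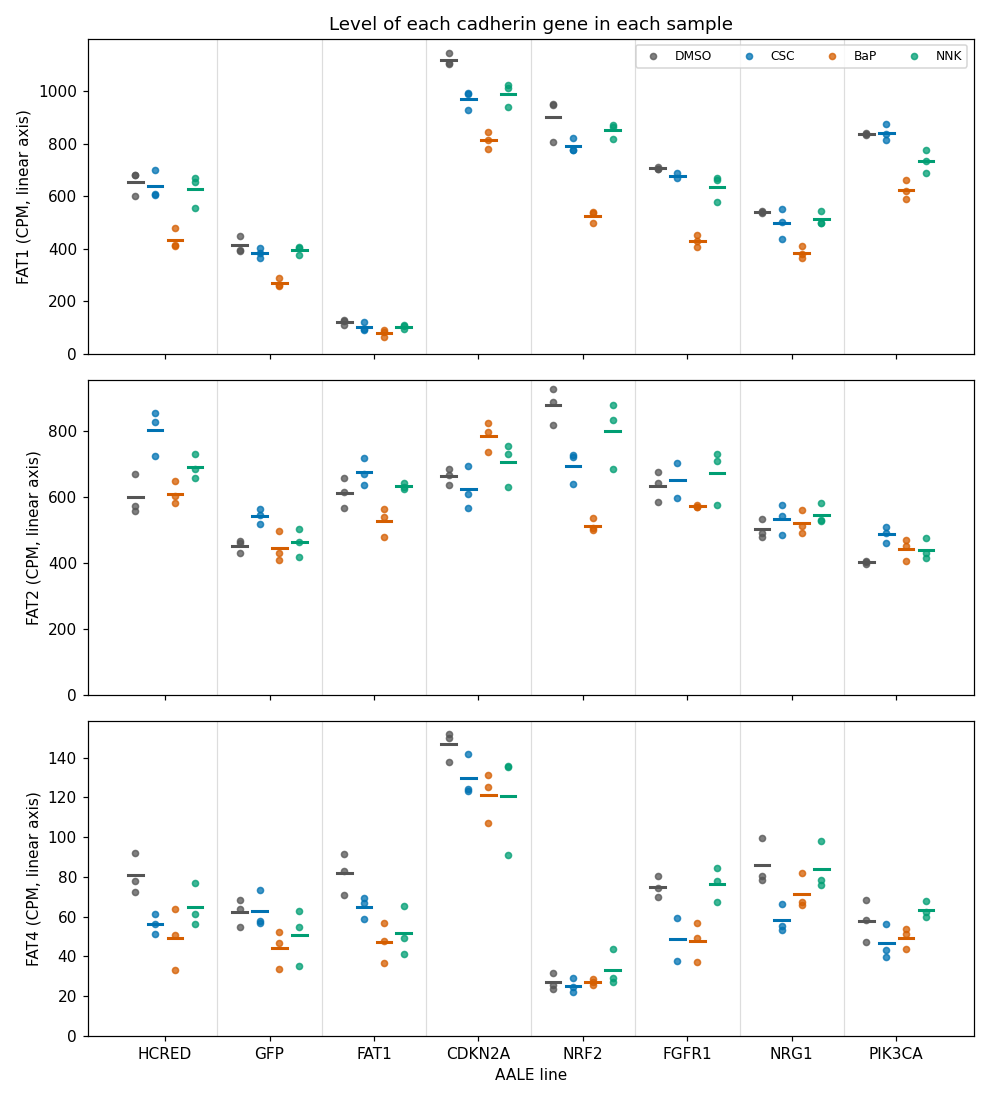
Each point is a sample, with the AALE line on the horizontal axis, the normalized level in CPM on a linear vertical axis from 0, colours for the 4 treatments, and a bar for the mean of each combination. FAT1 spans 66.5 to 1146 CPM over the 95 samples and is lowest in BaP-treated samples of every line, FAT2 spans 398 to 930 CPM, and FAT4 spans 22.1 to 152 CPM with the CDKN2A line at the top and the NRF2 line at the bottom.

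The order of FAT1 levels among DMSO-treated lines, from the highest, was CDKN2A, NRF2, PIK3CA, FGFR1, HcRed, NRG1, GFP and FAT1. FAT1 was at 1103, 1109 and 1146 CPM in CDKN2A samples, at 949, 952 and 807 CPM in NRF2 samples and at 843, 832 and 836 CPM in PIK3CA samples. It was at 705, 712 and 706 CPM in FGFR1 samples and at 682, 600 and 680 CPM in HcRed samples. It was at 536, 542 and 546 CPM in NRG1 samples, at 394, 397 and 451 CPM in GFP samples and at 129, 110 and 126 CPM in FAT1 samples. Of neighbouring lines in this order, NRF2 and PIK3CA overlapped and the other 6 pairs did not. Here and below, the share of all genes without overlap was counted only for BaP below DMSO in each of 8 lines. Elsewhere a lack of overlap describes these samples and is not set against all genes.

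FAT2 varied less, with NRF2 alone at the top of the DMSO-treated lines at 890, 930 and 819 CPM. CDKN2A (637 to 686 CPM), FGFR1 (586 to 676 CPM), FAT1 (566 to 660 CPM) and HcRed (558 to 671 CPM) formed a middle range in which each line overlapped the next. NRG1 lay at 480 to 535 CPM and GFP at 431 to 466 CPM. PIK3CA was lowest, at 398, 403 and 407 CPM, and did not overlap any other line.

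FAT4, the Fat protein that pairs with DCHS1, had another order. In DMSO-treated samples FAT4 was highest in CDKN2A, at 152, 138 and 150 CPM, and lowest in NRF2, at 23.5, 25.7 and 31.4 CPM, and neither overlapped any other line. NRG1 (78.5 to 99.5 CPM), FAT1 (71.0 to 91.5 CPM), HcRed (72.3 to 92.1 CPM) and FGFR1 (70.0 to 80.2 CPM) overlapped each other. GFP (54.7 to 68.2 CPM) and PIK3CA (47.1 to 68.2 CPM) lay below these 4 lines and overlapped each other.

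The first comparison asked how the levels of FAT1 itself and of the other members differed between the FAT1 knockout and GFP cells. With DMSO the 3 FAT1 samples lay between 110 and 129 CPM of FAT1 transcript and the 3 GFP samples between 394 and 451 CPM. The groups did not overlap with any of the 4 treatments, and the level in the FAT1 line was 3.28-fold (BaP) to 3.72-fold (NNK) lower. FAT1 transcript fell by 1.80 on the log2 scale with DMSO (SE 0.099, limma adjusted p = 3.88e-18), by 1.88 with CSC (SE 0.107, limma adjusted p = 2.34e-28), by 1.71 with BaP (SE 0.147, limma adjusted p = 3.41e-19) and by 1.90 with NNK (SE 0.129, limma adjusted p = 1.43e-34). Over 4 treatments it fell by 1.81 (SE 0.058, limma adjusted p = 1.37e-41, 102 ± 18.4 against 366 ± 61.7 CPM, SD, n = 12 each). The test of whether this effect depended on the treatment gave a limma adjusted p of 0.903 for FAT1, 0.811 for FAT2 and 0.803 for FAT4. FAT1 reads remained in all 12 knockout samples, at 27 to 169 reads a sample. Counts measure RNA and not protein.

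FAT2, the member closest to FAT1 in level, was higher in the FAT1 line than in GFP cells. With DMSO it was at 616, 566 and 660 CPM in the FAT1 line and at 460, 431 and 466 CPM in GFP cells, without overlap. The groups were also apart with CSC and NNK, and overlapped with BaP (540, 564 and 479 against 431, 409 and 497 CPM). FAT2 rose by a log2 of 0.41 with DMSO (SE 0.070, limma adjusted p = 1.61e-05), 0.33 with CSC (SE 0.059, limma adjusted p = 6.65e-06) and 0.43 with NNK (SE 0.082, limma adjusted p = 1.13e-05). With BaP the log2 difference was 0.27 (SE 0.089, limma adjusted p = 0.0167), a call that edgeR, DESeq2 and the omission of any of 3 of the 6 samples ended. Over 4 treatments FAT2 rose 1.30-fold (log2 0.38, SE 0.038, limma adjusted p = 8.48e-14). This direction held against GFP cells alone: against HcRed cells, a comparison added after the data were seen, FAT2 was lower in the FAT1 line (log2 -0.10, SE 0.039, limma adjusted p = 0.0284). The HcRed samples were at 677 ± 95.7 CPM and the GFP samples at 476 ± 50.8 CPM (SD, n = 12 each), with the FAT1 line between them at 613 ± 64.8 CPM.

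FAT4 in the FAT1 line did not pass the threshold. It was at 91.5, 71.0 and 83.0 CPM against 63.8, 54.7 and 68.2 CPM in GFP cells with DMSO, without overlap, and overlapped with the other 3 treatments. The log2 difference over 4 treatments was 0.22 (95% interval 0.03 to 0.41, limma adjusted p = 0.0502). It passed after correcting for GC and exon length (log2 0.34), with the replicate number as a block (adjusted p = 0.0464) and without any of 8 single samples, and it was 0.03 against HcRed cells (95% interval -0.15 to 0.22).

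Of all genes tested in these comparisons, 26.3% were called with DMSO, 25.3% with CSC, 21.4% with BaP, 17.2% with NNK and 48.9% over 4 treatments, and 42.9% between the FAT1 and HcRed lines. FAT1 and FAT2, 2 of the 3 members tested over 4 treatments, were called against this background. For the dependence of the knockout effect on treatment the share called was 0.342%. In simulated data with a 2-fold change 12.27% of the calls of this test were unchanged genes.

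**Figure D2:**
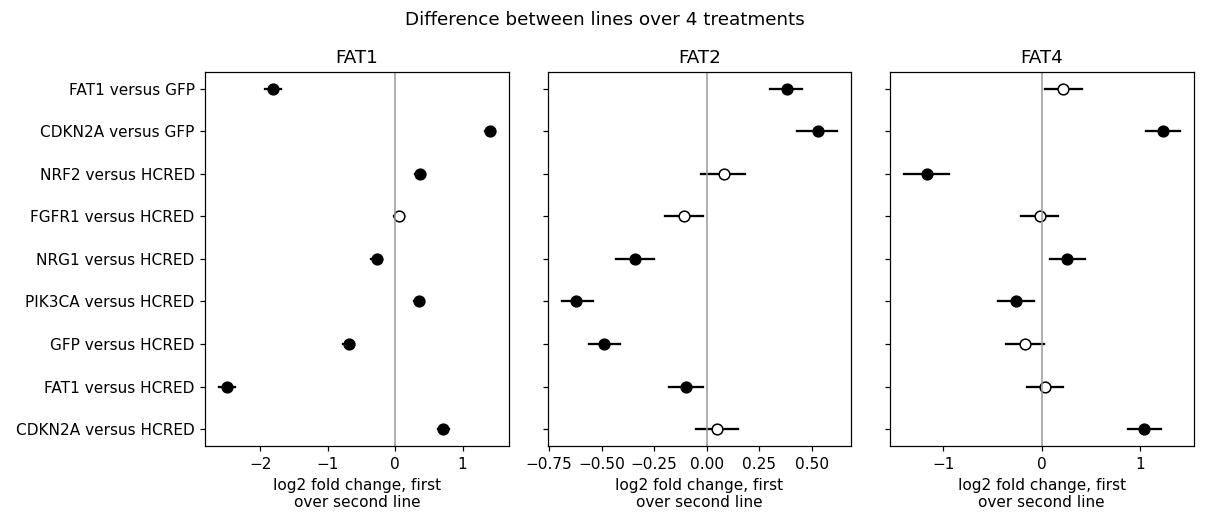
Points are log2 fold changes of the first line over the second on the horizontal axis, over 4 treatments, with 95% intervals as bars, filled where the limma adjusted p is below 0.05 and open where it is not. FAT1 ranges from -2.49 (FAT1 line against HcRed) to 1.40 (CDKN2A line against GFP), FAT2 lies above 0 against GFP for both knockout lines and at -0.10 and 0.05 against HcRed, and FAT4 lies at -1.17 in the NRF2 line.

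The knockout of CDKN2A, which encodes the cell cycle inhibitors p16 and p14ARF, was accompanied by higher levels of all 3 members counted. FAT1 was at 782 to 1146 CPM in the 12 CDKN2A samples (median 992) and at 260 to 451 CPM in the 12 GFP samples (median 390). FAT4 was at 90.8 to 152 CPM (median 133) against 33.6 to 73.2 CPM (median 55.8). For FAT1, FAT2 and FAT4 alike no CDKN2A sample overlapped a GFP sample, and the share of all genes for which this held was not counted. FAT1 rose 2.64-fold (log2 1.40, SE 0.036, limma adjusted p = 2.32e-44), FAT4 rose 2.35-fold (log2 1.23, SE 0.085, limma adjusted p = 1.14e-20) and FAT2 rose 1.44-fold (log2 0.53, SE 0.046, limma adjusted p = 6.96e-16). This comparison shares the GFP samples with the one before. Against HcRed cells FAT1 was higher by a log2 of 0.71 (SE 0.037, limma adjusted p = 4.41e-27) and FAT4 by 1.04 (SE 0.084, limma adjusted p = 9.98e-18), while FAT2 differed by 0.05 (95% interval -0.05 to 0.15, limma adjusted p = 0.408). Of all genes, 57.6% were called against GFP and 53.3% against HcRed.

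The 2 control lines differed from each other. FAT1 was at 260 to 451 CPM in GFP samples and at 413 to 700 CPM in HcRed samples (medians 390 and 608), and within each treatment every GFP sample was below every HcRed sample. FAT1 was 1.62-fold lower in GFP cells (log2 -0.69, SE 0.040, limma adjusted p = 6.00e-27) and FAT2 was 1.40-fold lower (log2 -0.49, SE 0.037, limma adjusted p = 1.21e-19), while FAT4 differed by a log2 of -0.17 (95% interval -0.36 to 0.02, limma adjusted p = 0.144). The share of genes called between the controls was 45.0%. The controls carried different vectors, and the summed level of the 9 epithelial markers was 5638 to 7293 CPM in GFP samples and 7203 to 10124 CPM in HcRed samples. It was 4455 to 6522 CPM in the FAT1 line, 4161 to 6545 CPM in CDKN2A, 6906 to 11858 CPM in NRF2 and 5624 to 8981 CPM in FGFR1 samples. In PIK3CA (4811 to 5745 CPM) and NRG1 samples (4851 to 6140 CPM), as in the FAT1 and CDKN2A lines, it was below every HcRed sample. KRT5 alone had a median of 3118 CPM over all samples, beside a median of 6023 CPM for the sum. The part of vector or marker level in any difference between lines was not tested.

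NRF2, the transcription factor that drives antioxidant genes, had opposite results for FAT1 and FAT4. FAT1 was at 500 to 952 CPM in the 12 NRF2 samples (median 813) and at 413 to 700 CPM in HcRed samples (median 608), and did not overlap within any of the 4 treatments. FAT4 was at 22.1 to 43.6 CPM in NRF2 samples (median 27.2) and at 33.0 to 92.1 CPM in HcRed samples (median 61.3), again with no overlap within a treatment. FAT1 rose 1.29-fold (log2 0.36, SE 0.037, limma adjusted p = 5.96e-13) and FAT4 was 2.25-fold lower (log2 -1.17, SE 0.114, limma adjusted p = 1.18e-13). The FAT4 values rest on 17 to 34 reads per NRF2 sample. FAT2 over 4 treatments differed by a log2 of 0.08 (95% interval -0.03 to 0.18, limma adjusted p = 0.332), although with DMSO the NRF2 samples were all above the HcRed samples (819 to 930 against 558 to 671 CPM) and with BaP all below them (500 to 536 against 582 to 648 CPM). The background share of genes called was 21.6%.

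The line overexpressing PIK3CA, the catalytic subunit of a lipid kinase that signals growth, had higher FAT1 and lower FAT2. FAT2 was at 398 to 511 CPM in PIK3CA samples (median 442) against 558 to 855 CPM in HcRed samples (median 666), with no overlap. FAT1 was at 590 to 877 CPM (median 797) and lay above HcRed within every treatment. FAT2 was 1.53-fold lower (log2 -0.62, SE 0.039, limma adjusted p = 9.91e-23) and FAT1 was 1.28-fold higher (log2 0.35, SE 0.036, limma adjusted p = 2.63e-13). FAT4 was lower by a log2 of -0.26 (SE 0.091, limma adjusted p = 0.0246), a call lost without the filter on low counts and without any of 3 single samples. Genes called made up 27.8%. The summed epithelial markers, given above, were also lower in PIK3CA than in HcRed samples without overlap.

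NRG1, a ligand of the ERBB receptors, had lower levels of both abundant members. FAT2 was at 480 to 582 CPM in NRG1 samples and below every HcRed sample within each treatment, and FAT1 was at 364 to 552 CPM and below HcRed within 3 of 4 treatments. FAT2 was 1.26-fold lower (log2 -0.34, SE 0.044, limma adjusted p = 1.94e-08) and FAT1 was 1.21-fold lower (log2 -0.27, SE 0.043, limma adjusted p = 2.58e-06). FAT4 was at 53.2 to 99.5 CPM and higher by a log2 of 0.26 (SE 0.088, limma adjusted p = 0.0443), which did not pass with DESeq2, with its size factors, without the filter or without any of 13 of the 24 samples. Of all genes, 10.8% were called, and the summed epithelial markers were lower than in HcRed samples without overlap here too.

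With all samples, no member was called in the line that overexpressed FGFR1, a receptor tyrosine kinase for fibroblast growth factors. The log2 difference from HcRed was 0.05 for FAT1 (95% interval -0.02 to 0.13), -0.11 for FAT2 (95% interval -0.20 to -0.02, limma adjusted p = 0.0979) and -0.02 for FAT4 (95% interval -0.21 to 0.16). Among these and DCHS1, FAT2 alone had an unadjusted p under 0.05 (0.0176), and edgeR and DESeq2 called none either. With a sample left out FAT2 ranged from -0.14 to -0.02 and was called without replicate 1 of DMSO-treated FGFR1 (-0.13, limma adjusted p = 0.0385) or replicate 1 of DMSO-treated HcRed (-0.14, limma adjusted p = 0.0237). The lowest size, -0.02, was without replicate 3 of CSC-treated FGFR1. The share of genes called was 13.5%. The NRF2, FGFR1, NRG1, PIK3CA and GFP comparisons share the 12 HcRed samples.

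BaP was followed by lower FAT1 in all lines. FAT1 with BaP was at 478, 416 and 413 CPM in HcRed cells against 682, 600 and 680 CPM with DMSO, at 535, 500 and 539 CPM in NRF2 cells against 949, 952 and 807 CPM, and at 82.8, 66.5 and 90.7 CPM in the FAT1 line against 129, 110 and 126 CPM. In 8 of 8 lines every BaP sample was below every DMSO sample, which was the case for 1.08% of all genes tested. FAT1 fell 1.48-fold over 8 lines (log2 -0.57, SE 0.028, limma adjusted p = 1.83e-39, 445 ± 212 against 662 ± 297 CPM, SD, n = 24 each). Within lines the log2 difference was between -0.78 (NRF2, SE 0.061) and -0.41 (PIK3CA, SE 0.059). FAT4 also fell over 8 lines (log2 -0.41, SE 0.067, limma adjusted p = 1.16e-07), and all BaP samples were below all DMSO samples in 5 of 8 lines. Within lines the FAT4 difference ran from -0.65 (FAT1 line, SE 0.187) to 0.02 (NRF2, SE 0.256), so no fall was seen in NRF2 cells. FAT2 was lower by a log2 of only -0.10 (SE 0.042, limma adjusted p = 0.0385), a call that edgeR and DESeq2 did not make and that was lost without any 1 of the 6 NRF2 samples with BaP or DMSO, or without replicate 3 of the DMSO-treated FAT1 line. Correcting for GC and exon length moved FAT2 to -0.18 (limma adjusted p = 2.38e-05) and FAT4 to -0.27 (limma adjusted p = 0.0005). The share of genes called was 51.0%.

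CSC and NNK had smaller differences. FAT1 was lower with CSC by a log2 of -0.09 (SE 0.026, limma adjusted p = 9.19e-04) and with NNK by -0.12 (SE 0.026, limma adjusted p = 2.80e-05). FAT4 was lower with CSC by -0.30 (SE 0.065, limma adjusted p = 4.15e-05), for example at 56.3, 51.4 and 61.3 CPM in HcRed cells against 72.3, 92.1 and 77.7 CPM with DMSO, and the samples were apart in 4 of 8 lines. With NNK the FAT4 difference of -0.15 (SE 0.064, limma adjusted p = 0.0399) was not called by edgeR, after correcting for GC and exon length (log2 -0.11) or without any of 7 single samples. FAT2 was higher with CSC by 0.12 (SE 0.041, limma adjusted p = 0.0093) and with NNK by 0.10 (SE 0.042, limma adjusted p = 0.0428), and the NNK call was lost with edgeR, with DESeq2, without the filter on low counts and without any of 49 of the 95 samples. Correcting for GC and exon length ended the CSC calls of FAT1 and FAT2 and turned FAT2 to -0.04 with CSC and -0.08 with NNK. Genes called made up 55.1% with CSC and 51.8% with NNK, and the 3 treatments share the DMSO samples. Summed markers of other cell types were 15.5 to 46.1 CPM with DMSO, 39.8 to 74.2 CPM with CSC, 18.7 to 82.1 CPM with BaP and 21.9 to 64.8 CPM with NNK. This sum rested mainly on COL1A1 and CD68, with medians of 25.2 and 13.8 CPM over all samples, while no other marker had a median above 1.19 CPM. It therefore does not measure a share of other cells, and its part in these differences was not tested.

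**Figure D3:**
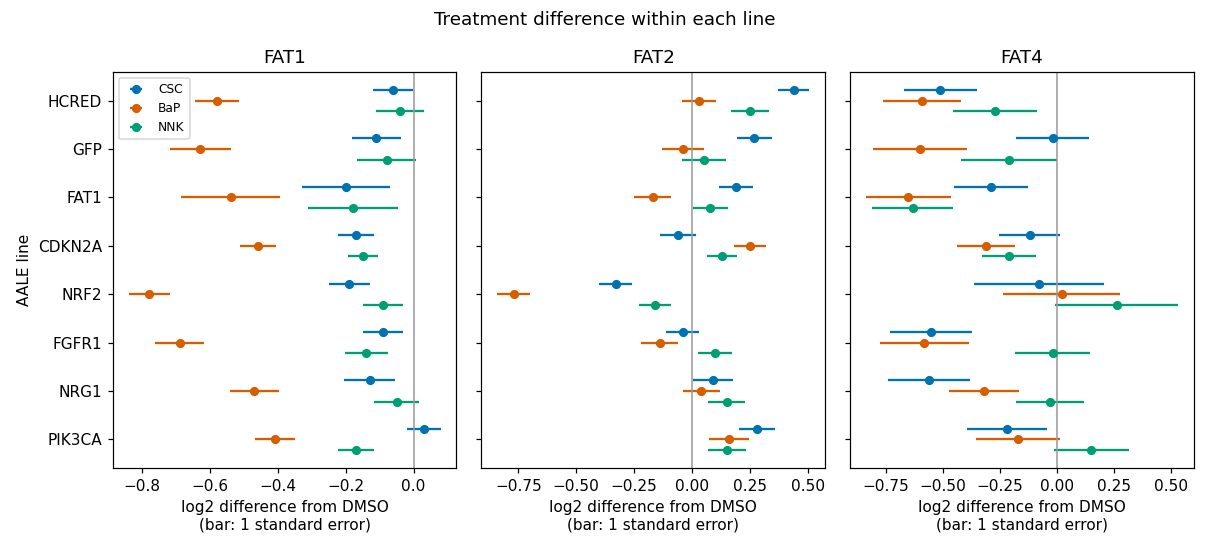
Points are log2 differences of each treatment from DMSO within a line, from a single model of 95 samples, on the horizontal axis with bars of 1 standard error, and lines are on the vertical axis. FAT1 with BaP lies between -0.78 and -0.41 in all lines, while FAT2 with BaP runs from -0.77 in the NRF2 line to 0.25 in the CDKN2A line.

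The treatment effect depended on the line for FAT2. In NRF2 cells FAT2 fell from 890, 930 and 819 CPM with DMSO to 536, 500 and 506 CPM with BaP (log2 -0.77, SE 0.072), and CSC-treated samples lay at 722, 639 and 727 CPM. In CDKN2A cells BaP-treated samples were higher, at 797, 826 and 736 CPM against 686, 669 and 637 CPM (log2 0.25, SE 0.069). In HcRed cells BaP left FAT2 at 603, 582 and 648 CPM against 558, 671 and 574 CPM (log2 0.03, SE 0.072), while CSC-treated samples were at 855, 830 and 725 CPM (log2 0.44, SE 0.067). The test of 21 interaction terms gave a limma adjusted p of 2.30e-14 for FAT2, 0.017 for FAT1, 0.122 for FAT4 and 0.852 for DCHS1, with 2.36% of genes called. For FAT1 edgeR gave an adjusted p of 0.268 and DESeq2 0.0491, and other limma settings with all samples gave 0.00662 to 0.0297, or 0.00278 to 0.0458 with a sample left out. In simulated data with the same dispersion for all genes, this limma test called more unchanged genes than the threshold allows. Of its calls at a 2-fold change, 19.3% were unchanged genes. With the edgeR value beside this, the FAT1 value is not firm. The differences within single lines were not tested beyond this.

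The balance of FAT1 and FAT2 per kb was lowest in the FAT1 line and highest in the PIK3CA and CDKN2A lines with DMSO, and these 3 lines overlapped no other line. FAT1 reads per kb over FAT2 reads per kb were 1.10 ± 0.178 in HcRed, 0.911 ± 0.0555 in GFP, 1.68 ± 0.0985 in CDKN2A and 2.07 ± 0.0335 in PIK3CA samples with DMSO (SD, n = 3 each). The FAT1 line was at 0.190, 0.193 and 0.208. FGFR1 lay at 1.04 to 1.20, NRG1 at 1.07 ± 0.0545 (SD, n = 3) and NRF2 at 0.980 to 1.06, each sample within the HcRed range of 0.891 to 1.22, which the GFP range of 0.853 to 0.964 also overlapped. Over all treatments the CDKN2A range (0.943 to 1.79) and the PIK3CA range (1.30 to 2.11) overlapped. With BaP the ratio was 0.712 ± 0.0780 in HcRed, 1.03 ± 0.101 in CDKN2A and 1.41 ± 0.181 in PIK3CA samples (SD, n = 3 each), without overlap with DMSO. NRF2 samples were alike with BaP and DMSO, at 0.994 to 1.06 and at 0.980 to 1.06, as both genes were lower with BaP there.

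**Figure D4:**
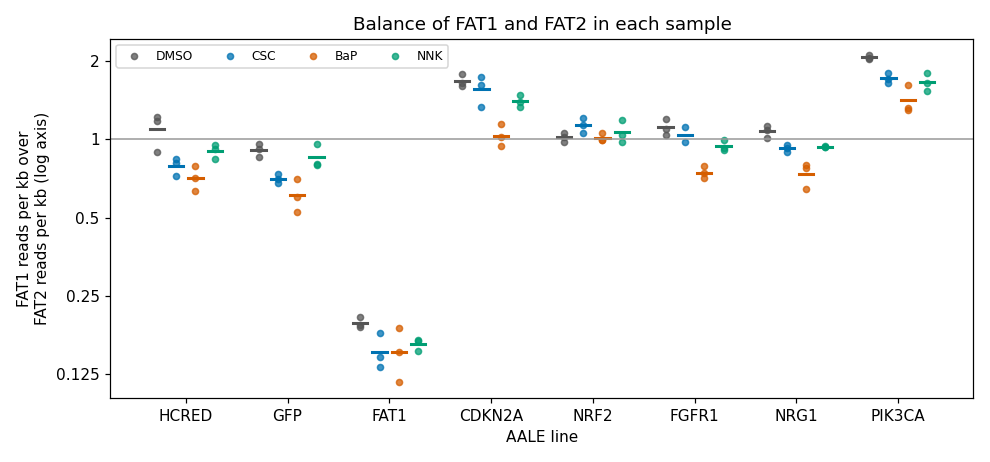
Each point is a sample, with the line on the horizontal axis and the ratio of FAT1 to FAT2 reads per kb on a log vertical axis, colours for treatments and bars for means. The ratio is 0.117 to 0.208 in the FAT1 line and 1.30 to 2.11 in the PIK3CA line.

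Across the 32 combinations, which include the FAT1 knockout line, correlations between FAT1, FAT2 and FAT4 were low. Pearson's r of mean log2 CPM was 0.171 between FAT1 and FAT2, 0.137 between FAT1 and FAT4 and 0.051 between FAT2 and FAT4. The combinations share lines and treatments, so these values are a description. FAT1 itself was the knockout target in the FAT1 line, with a mean log2 CPM of 6.69 there against 8.5 (GFP) to 9.92 (CDKN2A) in the other lines. How far this line set the correlations with FAT1, also those of the genes most like it, was not tested. Of 10062 genes averaging 10 or more reads, the most like FAT1 were TBC1D1, a regulator of Rab GTPases (r = 0.935), KLHL2 (r = 0.931) and HS6ST2, a heparan sulfate sulfotransferase (r = 0.930). The most like FAT2 were ZBTB16, a zinc finger transcription factor (r = 0.734), LAPTM4B (r = 0.705) and FAM83H-AS1 (r = 0.690). For FAT4 they were MECOM, a zinc finger transcription factor (r = 0.919), IL6ST, the shared receptor of the interleukin 6 family (r = 0.868), and PARP1, a DNA repair enzyme (r = 0.861).

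Lists of genes that act with the family were counted in the FAT1 line against GFP over 4 treatments, where 25% of all genes rose and 23.9% fell with a median log2 of 0.03. Of 11 tested partners of Fat and Dachsous proteins 5 rose and 2 fell (median 0.19), among them FJX1 (0.83, SE 0.163), the polarity protein gene SCRIB (0.70, SE 0.059) and ENAH (0.50, SE 0.046), an actin regulator, while EVL, also an actin regulator, fell (-0.50, SE 0.159). Of 14 core planar polarity genes 3 rose and 4 fell (median 0.03), with DVL2 (0.82, SE 0.096) and CELSR2 (0.45, SE 0.053) higher and PTK7 (-0.49, SE 0.064) and DVL3 (-0.26, SE 0.070) lower. Of 23 Hippo pathway genes 4 rose and 7 fell (median 0.02), with NF2 (0.60, SE 0.057) and TAOK2 (0.62, SE 0.078) higher and MAP4K4 (-0.64, SE 0.060) and TEAD3 (-0.63, SE 0.107) lower. Against HcRed cells 21.9% of all genes were higher and 21% lower in the FAT1 line. In that comparison 5 of the 11 partners were higher and 4 lower (median 0.07). There 4 of 14 planar polarity genes were higher and 3 lower (median 0.07), and 5 of 23 Hippo pathway genes higher and 7 lower (median -0.01). Medians and gene values here are log2 differences.

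Of 9 tested YAP targets 5 rose and 1 fell in the FAT1 line against GFP, with a median log2 of 0.32. CYR61, a matricellular protein gene, was at 106 ± 40.3 CPM against 37 ± 17.8 CPM (SD, n = 12 each; log2 1.46, SE 0.119, limma adjusted p = 5.85e-18). CRIM1 (log2 0.69, SE 0.061) and AJUBA (log2 0.32, SE 0.046) were also called higher and NT5E lower (log2 -0.98, SE 0.079). As with FAT2, this count depended on the control: against HcRed cells 3 of the 9 were higher and 4 lower, with a median log2 of -0.11, beside 21.9% and 21% of all genes. GFP cells themselves had 1 of 9 YAP targets higher and 5 lower than HcRed cells, CYR61 among the latter (log2 -1.25, SE 0.114), beside 22.2% and 22.8% of all genes. In the CDKN2A line, 7 of 9 were higher and 1 lower than in GFP cells (median log2 1.07), beside 29.4% and 28.3% of all genes. Against HcRed cells 7 were higher and 2 lower (median log2 0.57), beside 26.4% and 26.9% of all genes. CTGF was at 46.2 ± 18.0 CPM in CDKN2A and at 5.66 ± 4.15 CPM in GFP samples (SD, n = 12 each). The GFP mean lay within the 1.42 to 10.4 CPM to which 3 reads corresponded, so it rests on few reads.

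In the overexpression lines against HcRed, YAP targets were higher in 7 and lower in 0 of 9 with NRG1, higher in 8 and lower in 1 with PIK3CA, higher in 1 and lower in 4 with NRF2, and higher in 3 and lower in 2 with FGFR1. The share of all genes called was 5.86% higher and 4.91% lower for NRG1, 14.0% and 13.8% for PIK3CA, 10.4% and 11.2% for NRF2, and 7.25% and 6.23% for FGFR1. CTGF was called higher with NRG1 (log2 1.06, SE 0.181) and PIK3CA (log2 1.31, SE 0.171), and NT5E, a surface nucleotidase, lower with NRF2 (log2 -1.62, SE 0.096). Hippo pathway genes had 10 higher and 2 lower of 23 with PIK3CA and 3 higher and 5 lower with NRF2, where AMOT, an angiomotin that binds YAP, was higher (log2 2.68, SE 0.210). Partners of Fat and Dachsous proteins had at most 3 of 11 called in 1 direction in any of these 4 lines, and of the planar polarity genes CELSR2 was lower with PIK3CA (log2 -0.51, SE 0.063) and NRG1 (log2 -0.33, SE 0.067).

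Over 8 lines, partners of Fat and Dachsous proteins were higher in 6, 4 and 7 of 11 and lower in 2, 2 and 1 with CSC, BaP and NNK. SCRIB was higher with each (log2 0.44, 0.50 and 0.60), FJX1 with CSC (log2 0.56, SE 0.099), and ATN1, a homologue of the fly Fat effector Atrophin, with BaP (log2 0.40, SE 0.052) and NNK (log2 0.50, SE 0.051). Hippo pathway genes were lower in 10, 13 and 10 of 23 and higher in 4, 3 and 4. Planar polarity genes were higher in 7, 7 and 8 of 14 and lower in 4, 4 and 3. Among all genes, 28.0% were higher and 27.1% lower with CSC, 26.1% and 24.9% with BaP, and 26.1% and 25.7% with NNK. Counts and gene values in this paragraph are without the correction for GC and exon length. That correction lowered the number of genes called with each agent, as given below, and the lists were not counted after it. Of YAP targets 5, 1 and 5 of 9 were higher and 2, 3 and 1 lower, with CTGF higher with each (log2 0.60, 0.61 and 1.39) and CRIM1, a transmembrane protein gene, lower with BaP (log2 -0.42, SE 0.040).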

How the data were processed

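RNA of 95 AALE samples was profiled by SFL as single reads. According to the submitters' processing notes and the paper's methods, adapters were trimmed with cutadapt 1.12, quality was checked with FastQC 0.11.5, and reads were aligned to hg19 with STAR 2.5.2b. The authors counted reads in RefSeq genes with featureCounts (Subread) and deposited raw read counts, 1 whole number per gene and sample, without normalization. Reads carried no molecular identifiers, so copies made by PCR are counted as reads.

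Counts were normalized with TMM (edgeR 4.0.16, R 4.3.3) and voom-transformed, and groups were compared with limma 3.58.1 (2-sided, Benjamini-Hochberg over all genes with a mean count above 1, threshold 0.05). Comparisons of lines were fitted on the samples of the compared lines only. Each treatment against DMSO over 8 lines, and the test of treatment by line, were fitted on all 95 samples. Comparisons over treatments had treatment as a term, those over lines had line as a term, and interactions were moderated F tests. Log2 CPM used a prior count of 2. Also run were DESeq2 1.42.0 (Wald or likelihood ratio test, no independent filtering), its size factors, the quasi-likelihood test of edgeR, no filter, the replicate number as a block, a loess correction (span 0.3) for GC content and exon length, known for 93.6% to 94.3% of genes tested, and leaving out each sample. The HcRed line as control of both knockouts and the differences within lines were added after the data were seen. Groups came from the sample labels.

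The members and lists were chosen with earlier results of these data known. All members are named, and of each list the up to 4 genes with the largest log2 difference in FAT1 against GFP over 4 treatments and up to 2 in other comparisons, among called genes averaging 10 or more reads, of which the text gives examples. Gene models were GENCODE on GRCh37. Replicates of a combination differed by more than counting noise (chi-square per gene 1.14 to 2.82 over 94 pairs), so none was treated as a copy. Fits were tested on simulated data with 200 changed genes. All genes had the same dispersion there and no other gene differed between groups, unlike in the data. For the interaction tests the change was placed in the CSC-treated FAT1 line alone. The simulated shares therefore may not carry over to the data. At a 2-fold change limma recovered 86.0% in FAT1 against GFP with DMSO, 99.0% over 4 treatments and 60.5% in the test of treatment by line. Of the calls at this change, 3.37%, 2.94% and 19.3% were unchanged genes. The share was 7.41% for CSC against DMSO over 8 lines and 12.27% for the knockout effect by treatment. Both are above the threshold, so calls close to it in these fits are not firm. Data from the study's other platforms were not analysed here.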

Additional observations from a re-analysis of the deposited data

Results flagged for a closer look

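The effect of treatment on FAT2 differed between lines (limma F test of 21 interaction terms, adjusted p = 2.30e-14), with BaP at a log2 difference from DMSO of -0.77 (SE 0.072) in the NRF2 line and 0.25 (SE 0.069) in the CDKN2A line. For FAT1 the same limma test gave an adjusted p of 0.017, and 0.00278 to 0.0458 with a sample left out. DESeq2 also called FAT1, but edgeR gave 0.268. In simulated data with a 2-fold change, 19.3% of this limma test's calls were unchanged genes. A difference between lines is therefore not firm for FAT1. The BaP differences of FAT1 lay between -0.78 (SE 0.061) in the NRF2 line and -0.41 (SE 0.059) in the PIK3CA line. All 8 lines had lower FAT1 with BaP.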

How the results depend on the processing

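FAT1 kept its direction and its side of the threshold in every comparison between lines under each alternative run, as did FAT2 and FAT4 in the NRF2 line. FAT2 and FAT4 in the CDKN2A line did so against GFP. With HcRed as the control, a choice made after seeing the data, FAT2 was -0.10 in the FAT1 line, the opposite direction, and 0.05 and not called in the CDKN2A line. Values here are log2 differences unless named as counts or p, and the cause of each change was not tested. FAT2 in the FAT1 line with BaP was 0.26 by edgeR and 0.26 by DESeq2 and not called. FAT4 lost its call with NRG1 by DESeq2 (0.25), DESeq2 size factors (0.25) and no filter on low counts (0.26), and with PIK3CA without the filter (-0.25). FAT2 lost its call with BaP by edgeR (-0.08) and DESeq2 (-0.07), and with NNK by edgeR (0.08), DESeq2 (0.08) and no filter (0.10). FAT4 with NNK was -0.14 by edgeR and not called. Correcting for GC and exon length gave -0.04 for FAT1 and -0.04 for FAT2 with CSC, and -0.08 for FAT2 and -0.11 for FAT4 with NNK, none of them called, which turned the direction of FAT2 with both agents. It gave 0.09 for uncalled FAT4 in the FAT1 line with NNK, and FAT4 gained a call in the FAT1 line over 4 treatments (0.34) and with DMSO (0.47) and in GFP against HcRed (-0.25). For FAT1, the edgeR adjusted p for treatment by line was 0.268. DCHS1, at about 1 read a sample, was called nowhere and changed sign in the FAT1 line with DMSO (0.06 by DESeq2, 0.03 with the replicate block), with FGFR1 (0.25 by DESeq2), with NRG1 (0.15 without the filter) and, after correcting for GC and exon length, with CSC (-0.30), BaP (-0.16) and NNK (-0.03).

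With a sample left out, FAT2 in the FAT1 line with BaP ranged from 0.24 to 0.33 and lost its call without replicate 1 of FAT1 or replicate 1 or 2 of GFP. Uncalled FAT4 in that line with NNK ranged from -0.22 to 0.14. FAT4 ranged from -0.06 to 0.02 with FGFR1, from 0.22 to 0.28 with NRG1 (lost without 13 of 24 samples), and from -0.29 to -0.20 with PIK3CA (lost without replicate 1 of BaP-treated HcRed, replicate 2 of DMSO-treated HcRed or replicate 2 of DMSO-treated PIK3CA). FAT2 ranged from -0.13 to -0.08 with BaP (lost without 7 of 95 samples) and from 0.08 to 0.11 with NNK (lost without 49), and FAT4 from -0.18 to -0.13 with NNK (lost without 7). DCHS1 ranged from -0.87 to 0.80 in the FAT1 line with DMSO, from -0.59 to 0.09 with FGFR1, from -0.14 to 0.14 with NRG1, from -0.03 to 0.27 with PIK3CA, and from -0.46 to 0.06 in GFP against HcRed.

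Counts of genes called in the FAT1 line were 3752, 3584, 2907 and 2307 with DMSO, CSC, BaP and NNK, and 1983, 2138, 1077 and 858 by DESeq2. With a sample left out they were 1709 to 2651 with BaP (1709 without replicate 1 of GFP, 1789 without replicate 1 of FAT1) and 1362 to 2184 with NNK (1362 without replicate 1 of GFP). Over 8 lines, correcting for GC and exon length gave 4598, 3386 and 2356 genes with CSC, BaP and NNK against 7922, 7337 and 7455, and no filter gave 12546 with BaP and 12582 with NNK. The knockout effect differed between treatments for 48 genes, for 29 by edgeR, 11 by DESeq2, 24 without the filter, 22 after correcting for GC and exon length, and 25 to 70 with a sample left out (25 without replicate 1 of BaP-treated GFP, 29 without replicate 3 of NNK-treated FAT1). The treatment effect differed between lines for 339 genes, for 152 by DESeq2, 208 after correcting for GC and exon length, and 273 to 570 with a sample left out (570 without replicate 1 of BaP-treated NRG1).

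Deviations of same-numbered samples of the compared lines within a treatment had correlations over genes of -0.0552 to 0.0904. Replicates differed by a median chi-square per gene of 1.36, so counting noise made up much of these deviations. Low correlations therefore cannot exclude that replicate numbers pair the samples. With the replicate block, FAT4 in the FAT1 line passed over 4 treatments (0.22, limma adjusted p = 0.0464) and with DMSO (0.37, adjusted p = 0.0482), no other member call changed, and each count stayed within 1.5 times.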
